A study of Mus musculus with 4 samples.

Results

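Intermediate cells of the stria vascularis (SV) were compared by the share of their RNA that came from the mitochondrial genome. The cells were selected on their measured counts: at least 200 genes, Malat1 at 1% or more of unique molecular identifiers (UMIs, tags that count single captured RNA molecules), at least 4 UMIs of Met, Pax3, Nrp2 and Pde1c together, and a sum of these at least 3 times that of Lrp2, Kcnq1, Esrrb and Atp13a5. Of 3330 barcodes in the 3 whole-cell captures, 974 met these limits, and 130, 443 and 401 of them came from captures 1, 2 and 3. The mitochondrially encoded genes (mt- genes) supplied 20% or less of UMIs in 273 cells (43, 137 and 93 per capture), here called low-share cells, and 35% or more in 444 cells (44, 190 and 210), here called high-share cells. The other 257 cells (43, 116 and 98) lay between 20% and 35%. A further 251 barcodes met the marker limits but not the Malat1 limit and were not compared. Most of them had a high share. Without this limit the low-share cells numbered 45, 138 and 93 and the high-share cells 85, 287 and 300. All captures, 14387 barcodes with the nuclei included, came from CBA/J mice at postnatal day 30, and the labels name no treatment, genotype or sex. Each whole-cell capture was 1 trypsin-dissociated suspension pooled from several mice, and the nuclei were 1 capture of detergent-released nuclei, so that the capture, not the cell, was the replicate and the classes of a capture came from the same suspension.

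Intermediate cells are melanocyte-like cells of neural crest origin that lie between the marginal cells, which face the endolymph, and the basal cells, which seal the stria with tight junctions. Their Kir4.1 potassium channel, encoded by Kcnj10, is needed for the endocochlear potential, and they carry the melanin enzyme gene Dct. The share of mt- transcripts in a barcode is commonly read during quality control of single-cell data, since it differs between cell types and also when cytoplasmic RNA is lost or gained.

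The label of the cells was checked with markers that the selection did not use. Dct, Mlana, Kcnj10, Kcnj13, Cd44, Kit, Sox10, Mitf, Tyrp1 and Pmel together made up 42207, 34133 and 34072 counts per 1000000 UMIs outside mt- genes (CPM) in the low-share cells of captures 1, 2 and 3. They made up 37756, 30306 and 24483 CPM in the high-share cells. Most of this was Dct, at 37418, 30486 and 29911 CPM in low-share cells, whereas Kcnj10 (-1.04), Cd44 (-0.70) and Mitf (-0.59) were lower there on the log2 scale. The melanocyte genes Tyrp1 and Pmel held no UMI in either class, which allows up to 2.61 CPM over the low-share and 1.37 CPM over the high-share sums (3 UMIs, counting error only), and Kit held 1 UMI in the high-share cells. The markers of macrophages, B cells, neutrophils and Schwann cells each summed to at most 77.6 CPM in every low-share and high-share sum. Globin RNA differed by capture, with the erythroid markers at 221, 363 and 2376 CPM in low-share cells and 286, 520 and 4391 CPM in high-share cells.

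The marker limits set no bound on basal cell or fibrocyte RNA, and some of the chosen cells carried it. Basal cell markers (Cldn11, Sox8, Nr2f2, Tjp1, Ebf2 and Fbln1) summed to 1283, 1117 and 1126 CPM in low-share cells against 296, 275 and 378 CPM in high-share cells. Fibrocyte markers were at 22.5, 541 and 659 CPM in low-share cells and at 36.2, 56.1 and 49.6 CPM in high-share cells. Cells whose Met, Pax3, Nrp2 and Pde1c sum was less than 3 times their UMIs of basal, fibrocyte, endothelial and pericyte markers were therefore marked, a step added after the counts had been seen. They were 3, 9 and 5 of the low-share cells and 1, 7 and 15 of the high-share cells. The marked cells were deep, so that they held 16.7%, 18.8% and 18.9% of the low-share UMIs outside mt- genes against 3.68%, 5.23% and 8.92% of the high-share UMIs. Without them the basal cell markers were between 51.3 and 59.5 CPM in low-share cells and between 82.9 and 110 CPM in high-share cells. These levels were partly set by the marking, which used the basal markers other than Tjp1. Most comparisons are given with and without these marked cells.

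**Figure D1:**
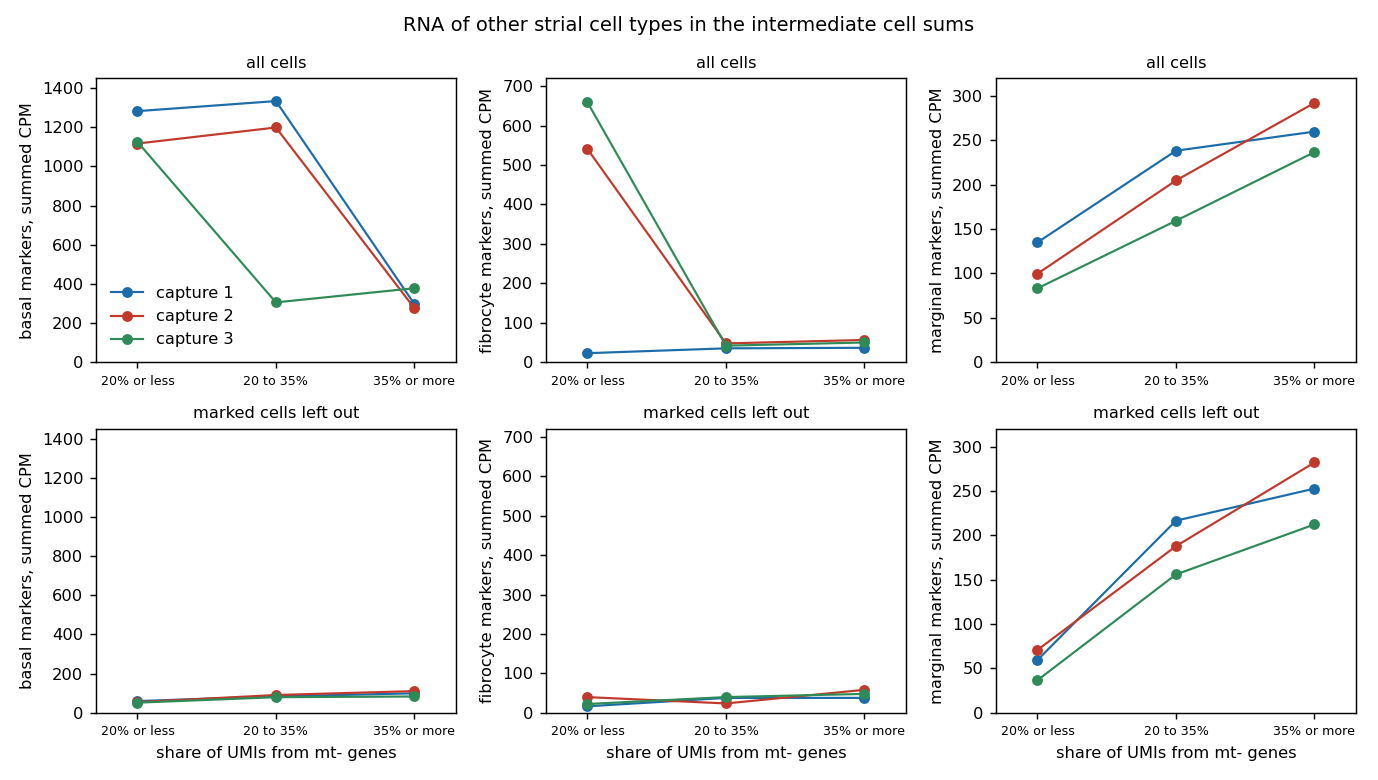
Summed CPM outside mt- genes of basal, fibrocyte and marginal cell markers (y axes) in the 3 classes of mitochondrial share (x axes), 1 line per capture, with all selected cells in the upper row and without the marked cells in the lower row. Basal markers reach 1283 CPM in low-share cells and lie at or below 59.5 CPM there once marked cells are left out, whereas marginal markers are lowest in low-share cells in both rows.

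Low-share cells held fewer UMIs. The median low-share cell had 4106, 3273 and 2841 UMIs outside mt- genes in captures 1, 2 and 3, and the median high-share cell had 6911, 4747 and 4456. With mt- genes included the medians were 4542, 3750 and 3379 UMIs against 12512, 8809 and 8241. The median mt- share, on which the classes were cut, was 12.0%, 11.9% and 13.3% in low-share cells and 40.6%, 42.7% and 43.2% in high-share cells. Over all 974 cells it ran from 1.81% to 78.2% without a gap at either limit: the highest low-share cell of each capture lay at 19.8%, and the lowest high-share cell at 35.5%, 35.2% and 35.0%. When cells were thinned to 1000 UMIs outside mt- genes, which left out 1 shallower high-share cell each in captures 2 and 3, the median number of genes was 591, 572 and 583 in low-share cells and 668.5, 662 and 674 in high-share cells. The lower values were those of the low-share cells in each capture, for depth and for genes in 1000 UMIs. With 3 pairs no two-sided permutation p can lie below 0.25. The 1000 UMIs included Malat1, whose share was larger in low-share cells, as given below. Fewer of these UMIs were therefore left for other genes in low-share cells. Gene numbers at equal depth without Malat1 were not compared. A doublet score was used to mark a fixed quota of the top-scored barcodes of each capture, 0.8% for each 1000 barcodes, without a score limit. The quota held 0 low-share cells and 0, 9 and 6 high-share cells. Cells outside the quota can still be doublets, so the 0 does not show that low-share cells were free of them.

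Malat1, a long noncoding RNA that stays in the nucleus, was used to select the cells and is therefore described without a test. The Malat1 limit removed mostly high-share barcodes, so the high-share values leave out those with the least Malat1. It made up 15.3%, 15.5% and 15.3% of UMIs outside mt- genes in the median low-share cell and 3.71%, 5.54% and 4.49% in the median high-share cell. The cells of 20% to 35% lay between, at 4.99%, 7.98% and 7.11%. In 1452 intermediate nuclei, chosen among 11057 by the same marker limits, the median was 25.4%, with an mt- share of 1.97%.

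**Figure D2:**
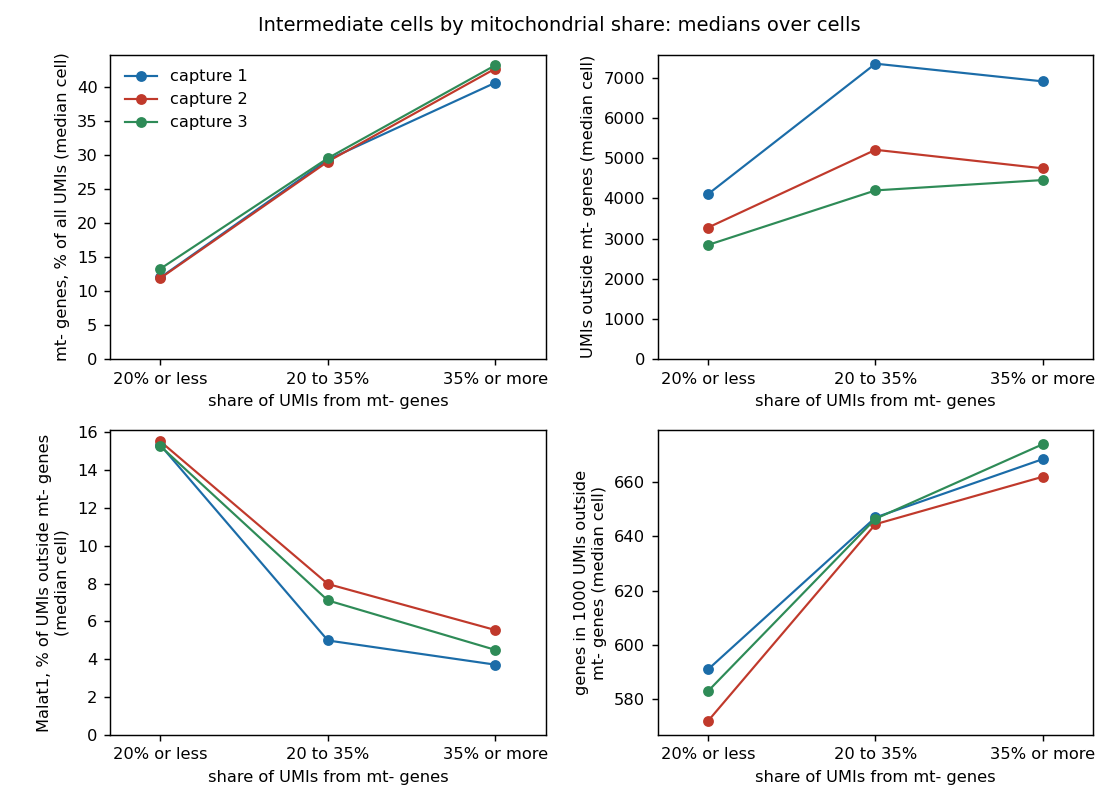
Medians over cells (y axes) of the mt- share of all UMIs, of the UMIs outside mt- genes, of the Malat1 share of these UMIs and of the genes found in 1000 of them, for the 3 classes of mitochondrial share (x axes), 1 line per capture. The axis of the last panel does not start at 0, and Malat1 lies at 15.3% to 15.5% in low-share cells against 3.71% to 5.54% in high-share cells.

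The mt- genes themselves, which also chose the classes, differed in their proportions. mt-Co1, a cytochrome c oxidase subunit, made up 13.3%, 12.9% and 12.4% of mt- UMIs in low-share cells and 16.8%, 15.8% and 16.5% in high-share cells. mt-Nd1, a complex I subunit, made up 12.7%, 12.3% and 13.4% against 10.7%, 10.5% and 11.1%. The cells between 20% and 35% had intermediate shares of both, 15.8%, 14.9% and 14.9% for mt-Co1 and 11.2%, 11.1% and 11.6% for mt-Nd1.

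UMIs outside mt- genes were summed per capture and class, and low-share sums were compared with high-share sums with the capture as a block in edgeR's quasi-likelihood test, adjusted by the Benjamini-Hochberg method over all genes tested. Log2 fold changes are low-share minus high-share after TMM scaling, which centres the bulk of the genes, whereas CPM values carry no such scaling. Of 6363 genes, 1090 (17.1%) were higher and 996 (15.7%) were lower in low-share cells at an adjusted p under 0.05. Without the marked cells, 1002 (17.6%) of 5690 genes were higher and 991 (17.4%) were lower, and 826 higher and 824 lower genes were called in both fits. Without TMM scaling the median log2 fold change of all genes moved from -0.01 to -0.23, and 625 genes were higher and 1658 lower. With 3 captures of pooled mice and the capture as a block, the p-values concern the spread between these suspensions, not between mice. The fit also pools the spread over genes, so a small p-value need not mean that a gene's 3 captures were alike. Over all cells Ier2, described below, differed by 0.60, 2.76 and 0.74 on the log2 scale in captures 1, 2 and 3. Its adjusted p was 4.61e-06 in edgeR.

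Of the 10 named genes with the largest increases in low-share cells, 8 were too low to test once the marked cells were left out. Ifitm1, which encodes an interferon-induced membrane protein, was at 117, 176 and 330 CPM in low-share cells and 13.2, 6.47 and 4.14 CPM in high-share cells, a log2 fold change of 5.32 ± 0.30 (SE) with an adjusted p of 9.88e-20 in edgeR. Without the marked cells it held 1 UMI in the low-share cells of each capture. The transcription factor gene Ebf1 was at 99.0, 181 and 223 CPM in low-share cells, and held 1, 1 and 3 UMIs there without the marked cells. The glutamate transporter gene Slc1a3, at 27.0, 166 and 181 CPM, held no UMI in the low-share cells that remained, which allows up to 3.20 CPM over their sums. Pdlim2 (4.01), Pantr1 (3.84), Nr2f2 (2.96) and Scara3 (2.92), given as log2 fold changes over all cells, were also among them. Nr2f2 was itself used to mark cells, so its loss was partly set by that step. For 4 genes, named after their values were seen, the direction turned. Apod moved from 2.53 to -0.70, Gsn from 1.37 to -0.95 and Ppp1r1b from 0.74 to -0.71, each with an adjusted p under 0.05 in both fits. Cldn11, the basal tight junction gene, moved from 2.18 to -1.10. It was among the genes that marked cells, so its value without them was partly set by that step and is description only.

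Cytosolic ribosomal protein genes also changed with the marked cells. In all cells 70 of 84 rose and 0 fell, beside 17.1% and 15.7% of all genes, with a median log2 fold change of 0.53. When the marked cells were left out, 15 rose and 2 fell (Rpl39 and Rpl5), beside 17.6% and 17.4% of all genes. The part of the group that rose was then near that of all genes. Its median was 0.12, which became -0.12 without TMM scaling. Rpl10 was at 1134, 1386 and 1574 CPM in all low-share cells, at 859, 949 and 971 CPM without the marked cells, and at 789, 864 and 780 CPM in the high-share cells without theirs. In the median cell the group made up 5.77%, 5.84% and 6.70% of UMIs outside mt- genes in low-share cells and 7.70%, 7.37% and 7.29% in high-share cells, so the low-share median was below the high-share median in each capture.

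Without the marked cells the 10 largest increases were those of 4 noncoding genes, of Klhl40, Sag and Ifnk, and of Junb, Ier2 and Hmox1. Klhl40, a kelch-family gene known from muscle, was at 178, 217 and 267 CPM in low-share cells, at 75.0, 74.1 and 136 CPM between 20% and 35%, and at 47.8, 46.7 and 53.4 CPM in high-share cells. The classes did not overlap, and the log2 fold change was 2.44 ± 0.20 (SE) with an adjusted p of 3.39e-19 in edgeR. Sag, which encodes arrestin of rod photoreceptors, was at 124, 162 and 183 CPM against 37.6, 42.1 and 18.2 CPM, a log2 fold change of 2.59 ± 0.24 (SE). Ifnk, an interferon gene that overlaps Mob3b on the other strand, was at 59.5, 110 and 80.6 CPM against 3.42, 34.1 and 22.7 CPM. In intermediate nuclei Klhl40 was at 309.8 CPM, Ifnk at 242 CPM and Sag at 3.58 CPM, against 79.8, 37.9 and 59.2 CPM in the cells of 20% to 35%.

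The noncoding genes of this set each lie opposite a protein-coding gene, and the strand that was counted is not given in the sources used here. On mm10, with GENCODE vM21 positions, Gm26699 is at chromosome 6, 38551531 to 38554007, opposite Luc7l2, and Gm26724 is at chromosome 17, 27201032 to 27203071, opposite Lemd2. Gm11713, at chromosome 11, 107410390 to 107413549, is opposite Pitpnc1, and Gm16152, at chromosome 1, 38384949 to 38393974, is opposite Aff3. Gm26724 was at 70.3, 52.1 and 62.3 CPM in low-share cells and 6.83, 5.69 and 4.54 CPM in high-share cells, a log2 fold change of 3.63 ± 0.43 (SE). Gm26699 held 5, 26 and 22 UMIs against 0, 3 and 4, Gm11713 held 18, 24 and 15 against 1, 6 and 7, and Gm16152 held 8, 40 and 14 against 2, 8 and 11. With so few UMIs in high-share cells, where Gm26724 held 2, 5 and 4, their folds are imprecise. All 4 were also higher in low-share cells with the marked cells included.

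The 10 named genes with the largest decreases over all cells were also lower without the marked cells. Gas2, which encodes an actin-binding protein, was at 124, 133 and 110 CPM in low-share cells, at 467, 623 and 577 CPM between 20% and 35%, and at 837, 916 and 895 CPM in high-share cells. Its log2 fold change was -2.61 ± 0.15 (SE) with an adjusted p of 9.62e-29 in edgeR, and -2.35 with the marked cells. Gpx3, the secreted glutathione peroxidase, was at 119, 158 and 98.9 CPM against 690, 822 and 723 CPM, a log2 fold change of -2.31 ± 0.15 (SE). The metallothionein gene Mt3 was at 216, 208 and 121 CPM against 888, 936 and 880 CPM, a log2 fold change of -2.09 ± 0.15 (SE). For all 3 genes the cells of 20% to 35% lay between the other classes in every capture, as the plot of 10 genes shows. Rgs4, a regulator of G protein signalling, was at 16.2, 27.1 and 14.7 CPM against 150, 140 and 137 CPM. Prom2 (-3.28), Iqgap2 (-3.22), Dsp (-3.04), Ank3 (-2.99), Zak (-2.66) and Dnase1 (-2.12) fell as well, as log2 fold changes without the marked cells that rest on 0 to 9 UMIs in each low-share sum for the first 5. The other genes named for large decreases, Plce1, Rhou, Rspo3, Ppp2r2c, Wwc1 and Cyfip2, held between 0 and 5 UMIs in each low-share sum, so that no fold is given for them. Plce1 held 2, 2 and 0 UMIs against 41, 121 and 106 in high-share cells. Rhou held 0, 0 and 3 UMIs against 18, 42 and 64, and it was not called with the marked cells (-0.45, adjusted p = 0.19 in edgeR).

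**Figure D3:**
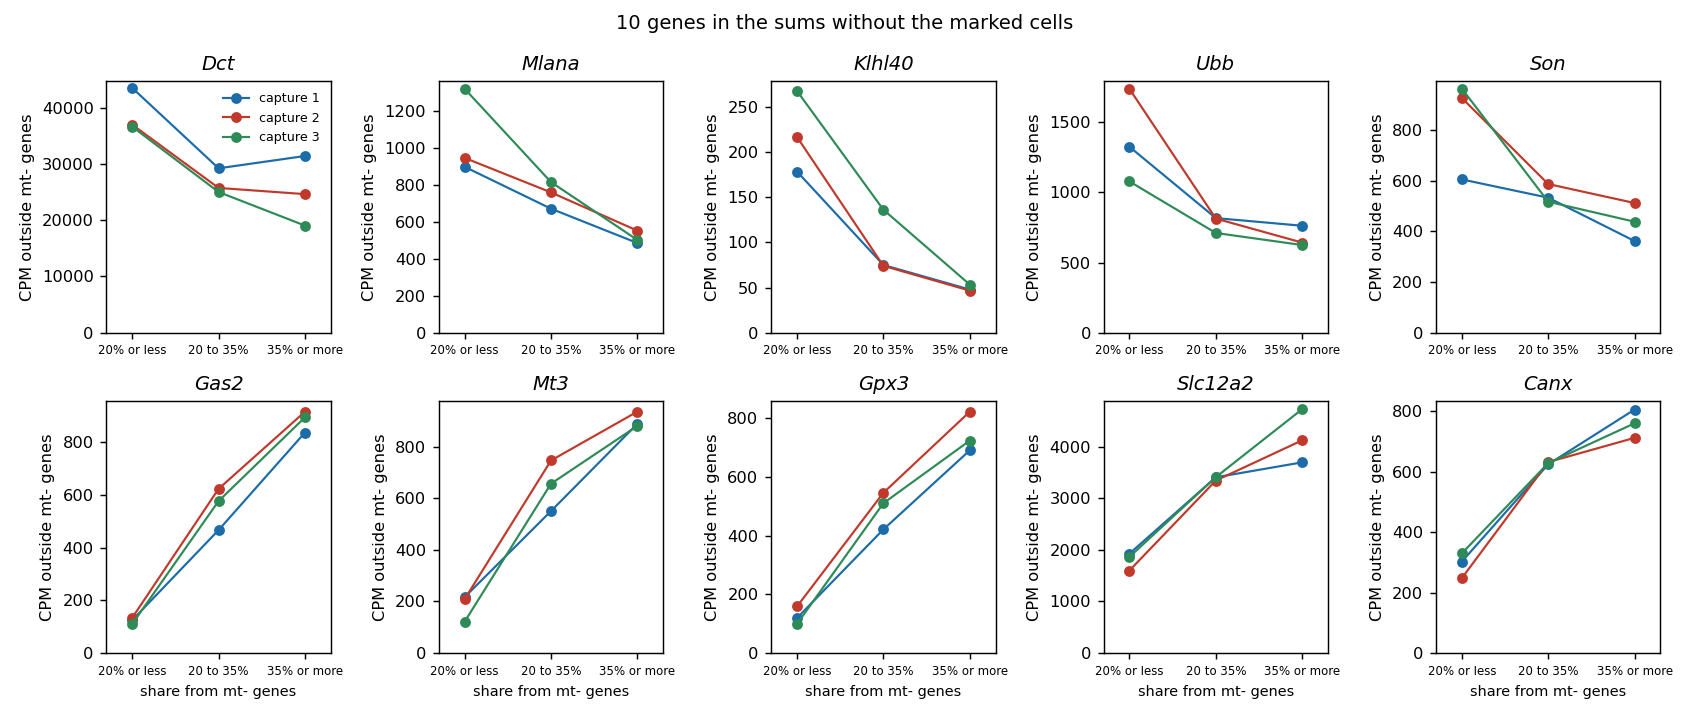
CPM outside mt- genes (y axes) of 10 named genes in the 3 classes of mitochondrial share (x axes), without the marked cells, 1 line per capture. Dct, Mlana, Klhl40, Ubb and Son are highest and Gas2, Mt3, Gpx3, Slc12a2 and Canx lowest in the low-share sum of each capture.

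Marginal cell RNA moved with the comparison. Marginal nuclei were chosen by the mirrored marker limits, which gave 3844 nuclei of 1 capture. The 10 named genes with the largest decreases over all cells each had a higher CPM in marginal than in intermediate nuclei. The ratios ran from 2.28 times for Gpx3 to 33.0 times for Ank3. Plce1 (11.2 times), Rspo3 (9.50), Cyfip2 (3.64), Ppp2r2c (2.71) and Wwc1 (2.59) were higher there too, and Rhou held 0 UMIs in both. Some genes that rose in low-share cells were also higher in marginal nuclei. Of the 10 largest increases without the marked cells these were Ier2 (2.42 times), Gm11713 (2.33), Sag (1.91), Junb (1.54) and Gm26724 (1.11). Klhl40, Ifnk, Gm16152, Hmox1 and Gm26699 were lower there. Kcnq1ot1, which also rose, was at 10.3 times. The share among all genes is not given here. The list of genes below was made after the fits had been seen. Of 958 genes with at least 4 times the CPM in marginal as in intermediate nuclei, only 63 could be tested without the marked cells. Of these, 40 (63.5%) fell and 2 rose in low-share cells, beside 17.4% and 17.6% of all genes. Their median log2 fold change was -1.20. A gene could pass the count filter through the high-share sums alone. The counts for this list were therefore partly set by the filter and are description only. With the marked cells, 40 of 86 fell and 9 rose, beside 15.7% and 17.1% of all genes. The genes of this list outside those that selected the cells made up 0.549%, 0.633% and 0.500% of low-share UMIs and 1.21%, 1.36% and 1.19% of high-share UMIs without the marked cells. Of the 8 marginal markers that the selection did not use, only Kcne1, the beta subunit of the marginal cell potassium channel, passed the filter in the fit without marked cells. It was at 43.2, 47.9 and 18.3 CPM against 198, 215 and 160 CPM. Over all cells Wnk4, another of these markers, was tested too and went the other way. Wnk4 was then at 81.0, 52.4 and 62.4 CPM against 29.6, 31.3 and 45.5 CPM (log2 fold change 0.98, adjusted p = 0.00232 in edgeR). Without the marked cells Wnk4 was too low to test, at 10.8, 22.9 and 14.7 CPM against 17.1, 22.8 and 28.4 CPM. The 8 markers summed to 59.5, 70.8 and 36.6 CPM in low-share cells and 253, 282 and 212 CPM in high-share cells, with Tacr3, Bsnd and Abcg1 at 0 UMIs in low-share cells, which allows up to 3.20 CPM over the low-share sums. Gas2 had 4.84 times, Gpx3 2.28 times and Mt3 1.88 times the CPM in marginal as in intermediate nuclei. In a further fit, Met, Pax3, Nrp2 and Pde1c had to exceed the marginal sum by 10 times instead of 3 times. There 25 of 48 genes of the list fell and 3 rose, beside 851 and 890 of all 5245 genes tested. Gas2 changed by -1.92, Gpx3 by -1.85 and Mt3 by -1.71 on the log2 scale in that fit. The part of marginal cell RNA in these values was not tested further.

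Mitochondrial genes that are encoded in the nucleus were more often called higher than lower in low-share cells for the protein synthesis, import and respiratory chain lists. Beside them, 17.6% of all genes were higher and 17.4% lower without the marked cells, and 17.1% and 15.7% with them. Without the marked cells, 455 of the 1138 genes with the shortest summed exons were also higher and 52 lower. Their median log2 fold change was 0.42. Whether the mitochondrial lists differed from other genes of like length was not tested. Of 77 tested genes of the mitochondrial ribosome and protein import, 40 rose and 0 fell without the marked cells (41 of 86 and 0 with them), and the median log2 fold change was 0.61, or 0.37 without TMM scaling. Mrps34, of the small mitochondrial ribosomal subunit, was at 81.1, 99.9 and 91.6 CPM in low-share cells and 41.0, 46.7 and 50.0 CPM in high-share cells. Of 77 respiratory chain genes, 41 rose and 4 fell, with a median of 0.38, or 0.14 without TMM scaling, and with the marked cells 33 rose and 5 fell. In the median cell without the marked cells the respiratory chain genes made up 4.39%, 4.30% and 4.45% of UMIs outside mt- genes in low-share cells and 4.17%, 4.39% and 3.99% in high-share cells, so that capture 2 went the other way. The complex I gene Ndufs4 was at 178, 244 and 139 CPM against 78.6, 101 and 92.0 CPM, a log2 fold change of 1.27 ± 0.19 (SE). The 4 that fell were Sdha (-0.99), the catalytic subunit of complex II, Atp5a1 (-0.79), Uqcrc2 (-0.68) and Cox7a1 (-0.54). Sdha was at 211, 162 and 136 CPM against 403, 345 and 430 CPM. Among 26 genes of mitochondrial maintenance, with a median of 0.07, or -0.17 without TMM scaling, 6 rose, among them Cycs (0.86) and Tfam (0.89), and 3 fell, namely the fusion gene Mfn2 (-1.66), the kinase gene Pink1 (-1.31) and the channel gene Vdac1 (-0.70).

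The lists of splicing and speckle proteins, nuclear long noncoding RNAs and immediate-early genes held more genes called higher than lower in low-share cells. Beside them, 17.6% of all genes were called higher and 17.4% lower. These lists do not stand for nuclear RNA in general. In the list of genes more abundant in nuclei, described below, 19 were higher and 19 lower without the marked cells. The median log2 fold change of that list was -0.13. Of 32 splicing and speckle protein genes 17 rose and 4 fell, with a median log2 fold change of 0.46, or 0.22 without TMM scaling, and the 4 were Hnrnpu (-0.74), Hnrnpa2b1 (-0.65), Hnrnph1 (-0.49) and Ddx17 (-0.45). Son, a speckle scaffold gene, was at 605, 927 and 964 CPM against 362, 512 and 438 CPM. The 3 long noncoding RNAs of the list that could be tested, Neat1 (0.99), Xist (0.86) and Kcnq1ot1 (0.58), rose. Xist was at 508, 881 and 1477 CPM against 277, 799 and 748 CPM. In intermediate nuclei Xist held 8 UMIs (3.19 CPM), against 763 CPM in the cells of 20% to 35%. The labels name no sex of the pooled mice, so the part of sex in the Xist values was not tested. Of 12 immediate-early genes 10 rose and 0 fell, with a median of 0.88, and of 0.54, 1.32 and 0.39 in captures 1, 2 and 3. In the median cell they made up 0.129%, 0.126% and 0.108% of UMIs outside mt- genes in low-share cells and 0.0932%, 0.105% and 0.108% in high-share cells, so that capture 3 showed no difference by this measure. Jund was at 411, 668 and 278 CPM against 273, 273 and 256 CPM. Junb was at 43.2, 135 and 33.0 CPM against 10.3, 25.0 and 7.95 CPM, and Ier2 at 37.8, 181 and 33.0 CPM against 23.9, 21.6 and 20.4 CPM, so that capture 2 stood apart. Over all cells 14 of 32 splicing genes rose and 4 fell, and 9 of 13 immediate-early genes rose. Beside them, 17.1% of all genes rose and 15.7% fell. Without capture 2 the log2 fold change of Ier2 over all cells was 0.80 (adjusted p = 0.232, edgeR) in place of 2.07. Hmox1, the heme oxygenase gene, was at 43.2, 231 and 33.0 CPM against 13.7, 33.0 and 27.3 CPM, and its log2 fold change over all cells was 1.88, and 0.74 without capture 2 (adjusted p = 0.268, edgeR).

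The melanin and melanosome genes had a median log2 fold change of 0.01 without the marked cells, and smaller shares of them rose and fell than the 17.6% and 17.4% of all genes. With the marked cells left out, Dct was at 43492, 36967 and 36602 CPM in low-share cells and 31398, 24628 and 19042 CPM in high-share cells, a log2 fold change of 0.91 ± 0.13 (SE) with an adjusted p of 3.63e-09 in edgeR. Mlana, a melanosome protein gene, was at 897, 945 and 1319 CPM against 485, 552 and 502 CPM. These were the 2 of 16 melanin and melanosome genes that rose, and the 2 that fell were Mlph (-0.83), which links melanosomes to motors, and the transporter gene Slc45a2 (-0.38). Of 8 melanocyte regulators Bmyc (0.84) and Sox10 (0.59) rose, and Mitf (-0.38) and the endothelin receptor gene Ednrb (-0.40) fell. With the marked cells Sox10 was not called (0.34, adjusted p = 0.0647 in edgeR). In that fit 2 of 16 melanin genes rose and 4 fell, beside 17.1% and 15.7% of all genes. Leaving out capture 2, Mitf was not called (-0.22, adjusted p = 0.370).

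Among ion transport and glycolysis genes, more fell than rose in low-share cells, and 8 and 7 of them were not called. Beside the lists of this paragraph, 17.6% of all genes rose and 17.4% fell without the marked cells. Of 17 ion transport and gap junction genes 2 rose, Kcnj13 (1.01) and Fxyd1 (1.07), and 7 fell, with a median log2 fold change of -0.28, and of 0.02, -0.41 and -0.51 in captures 1, 2 and 3. Kcnj10 was at 2297, 1693 and 1759 CPM in low-share cells and 4801, 3678 and 3682 CPM in high-share cells, a log2 fold change of -0.84 ± 0.11 (SE). Slc12a2, the Na-K-Cl cotransporter gene of marginal cells, was at 1924, 1597 and 1861 CPM against 3694, 4121 and 4724 CPM. Slc12a2 had 2.77 times the CPM in marginal as in intermediate nuclei, and its change was -0.96 with the marker ratio of 10. Of 15 glycolysis and lactate genes 6 fell, among them Pkm (-0.83), Pgam1 (-0.85) and Pfkl (-0.76), and Aldoa (0.60) and Eno1 (0.42) rose. Of 16 vacuolar proton pump genes 5 rose and 4 fell, with Atp6v0b at 1.29 and Atp6v1a at -1.15. Of 25 genes of the endoplasmic reticulum and secretion 9 rose, such as Krtcap2 (1.30), and 7 fell, among them the chaperone genes Canx (-1.14), Calr (-0.61) and Hspa5 (-0.53). With the marked cells the numbers that rose and fell were 3 and 8 of 19 for ion transport and 2 and 7 of 15 for glycolysis. They were 4 and 6 of 16 for the proton pump and 9 and 7 of 25 for the endoplasmic reticulum. Of all genes, 17.1% rose and 15.7% fell in that fit.

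Stress and redox genes were called in both directions, beside 17.6% of all genes that rose and 17.4% that fell. Of 15 heat shock and ubiquitin genes 5 rose, including Ubb (1.28) and Cryab (0.58), and 4 fell, namely the mitochondrial chaperone genes Hspd1 (-1.45) and Hspa9 (-0.95) and the cytosolic Hsp90aa1 (-0.73) and Hsp90ab1 (-0.74). Ubb was at 1324, 1736 and 1077 CPM against 762, 642 and 625 CPM. Of 14 stress and cell death genes only Bax (1.01) and Atf4 (0.85) rose and Ccng1 (-0.90) fell, smaller shares than the 17.6% and 17.4% of all genes. Atf4 was lower in the low-share cells of capture 1, at 119 against 157 CPM, and was not called without capture 2 (0.38, adjusted p = 0.243, edgeR). Of 30 antioxidant and metal-binding genes 11 rose, such as Txn1 (1.13), Gstp1 (1.45) and Prdx4 (1.47), and 3 fell, namely Gpx3, Mt3 and catalase, Cat (-1.53). Of 25 cytoskeleton genes 7 rose and 3 fell, and their median of 0.24 was 0.00 without TMM scaling. Of the 3 transcripts that overlap ribosomal RNA, Gm26917 rose (0.95) and Gm42418 fell (-0.40). With the marked cells 6 of 18 heat shock genes rose and 5 fell, and 2 of 15 stress and cell death genes rose and 1 fell. In that fit 10 of 30 antioxidant genes rose and 3 fell, and 10 of 26 cytoskeleton genes rose and 1 fell (Tuba1c, -0.88). Of all genes, 17.1% rose and 15.7% fell there.

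**Figure D4:**
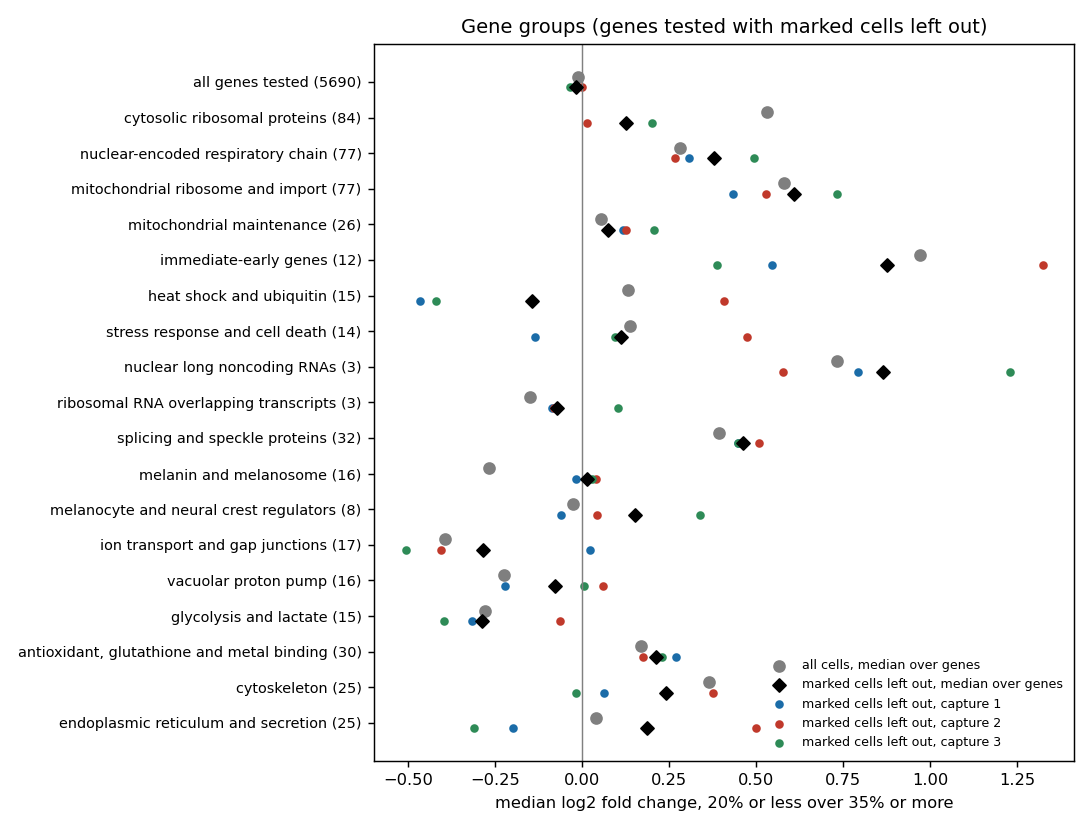
Median log2 fold change of low-share over high-share cells (x axis) for the 18 gene groups and for all genes tested (y axis, with the number of genes tested without the marked cells). Grey circles stand for all cells, black diamonds for the fit without marked cells and coloured points for its single captures, and the mitochondrial ribosome and import group lies above 0 in each capture.

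The genes called in the opposite directions differed in length, a feature the selection did not use. By GENCODE vM21, with 99.9% or more of genes matched, the 1001 matched genes higher in low-share cells without the marked cells had a median summed exon length of 2.76 kb and a median gene span of 8.83 kb. The 991 lower genes had medians of 6.02 kb and 43.9 kb, and all genes tested 4.78 kb and 25.2 kb. Split into 5 bins of nearly equal size by exon length, the 1138 shortest genes (up to 2.56 kb) had a median log2 fold change of 0.42, with 455 higher and 52 lower. The 1138 longest genes (from 8.43 kb) had a median of -0.23, with 84 higher and 257 lower. The shortest bin was at 0.29, 0.40 and 0.43 and the longest at -0.16, -0.26 and -0.24 in captures 1, 2 and 3, and without TMM scaling the bins were at 0.19 and -0.47. The median exon lengths of the higher and lower genes were 2.29 kb and 5.44 kb in cells thinned to 1000 UMIs, and 2.67 kb and 6.03 kb with the marker ratio of 10. Genes of the shortest bin also had a higher median level, 78.7 CPM against 56.5 CPM in the longest. Genes not annotated as protein-coding, pseudogenes such as Rpl6l included, were 2.80% of the higher and 0.202% (2 genes) of the lower genes. They were 1.30% of all genes tested. The gene lists above were set beside all genes tested, not beside genes of like length.

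**Figure D5:**
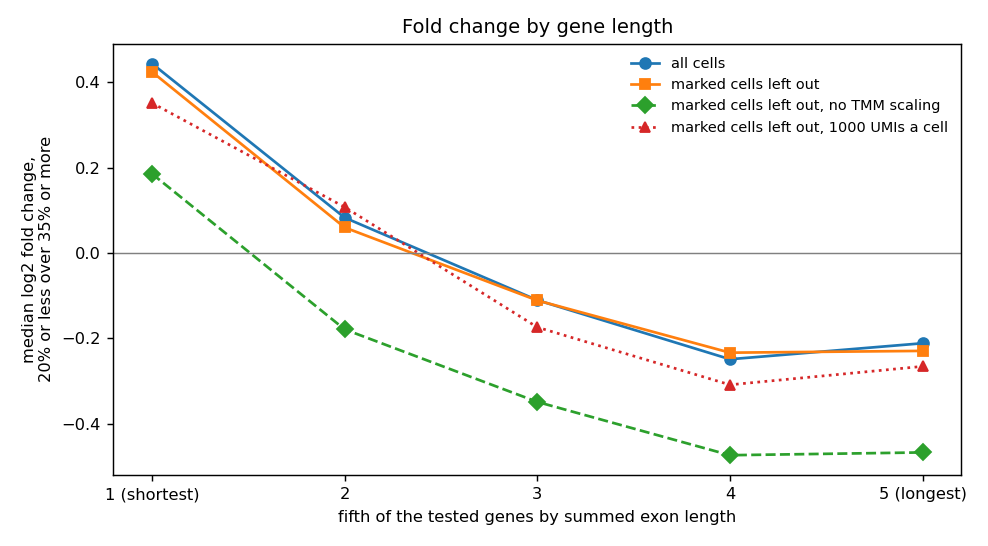
Median log2 fold change of low-share over high-share cells (y axis) for 5 bins of the tested genes by summed exon length (x axis), for 4 fits. All 4 lines decline over the 4 shorter bins, from 0.42 to -0.23 without the marked cells.

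Nuclear and cellular levels were then set beside the comparison. The intermediate nuclei were compared with the cells of 20% to 35%, which are in neither class but share the captures. Of 144 tested genes with at least 4 times the CPM in nuclei, 19 (13.2%) were higher and 19 were lower in low-share cells without the marked cells, with a median log2 fold change of -0.13. Of 373 genes with at least 4 times the CPM in cells, 106 (28.4%) were higher and 40 (10.7%) were lower, with a median of 0.14. With the marked cells 190 of 465 genes of this cellular list were higher and 47 lower, with a median of 0.33. For the nuclear list 21 of 182 were then higher and 28 lower. All genes tested had 17.6% higher and 17.4% lower without the marked cells, and 17.1% and 15.7% with them. The share called higher was 13.2% among the tested genes more abundant in nuclei and 17.6% among all genes, a difference that was not tested. Of 1387 genes of the nuclear list only 144 could be tested, against 373 of 450 of the cellular list. The nuclei were counted against another annotation than the cells, which can also set levels apart. The nuclear list held long genes, with a median exon length of 8.78 kb against 2.73 kb for the cellular list.

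The range of mitochondrial shares was also compared in steps. Low-share cells against cells of 20% to 35% gave 556 higher and 477 lower of 5763 genes (17.9% in either direction), and 434 and 423 of 5000 genes (17.1%) without the marked cells. This count changed most without capture 2, where 4 genes were called, Ifitm1 higher and Gas2, Gpx3 and Dnase1 lower, and 998 of 5430 had an unadjusted p under 0.05 (1862 of 5763 with all captures), and without capture 3 there were 323 and 297. Cells of 35% to 50% against cells of 50% or more gave 3 genes of 3794 (0.0791%), Cldn11 (2.68), Clu (3.44) and Apod (1.79), all higher in the cells of 35% to 50%. After the marked cells were left out, 0 of 3702 genes were called in edgeR, 175 had an unadjusted p under 0.05, and DESeq2 called 1 gene with the marked cells. Gas2 changed by -1.74 in the first of these comparisons and by 0.34 in the second, Mt3 by -1.61 and 0.16, and Slc12a2 by -0.81 and -0.02, as log2 fold changes over all cells. The second comparison had only 7, 37 and 36 cells of 50% or more in captures 1, 2 and 3, with and without the marked cells. It also had fewer genes tested, so few calls there need not mean that little differed. The difference between the comparisons was not tested.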

How the data were processed

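The authors aligned reads of 10x Genomics libraries to mm10 with Cell Ranger 2.0.0, as named in the methods and the submitters' processing notes, and for every capture they deposited a matrix of unnormalized UMI counts (27998 genes for cells, 48816 for nuclei). The counting of introns and strand is not given in the sources used here. The members and gene lists were chosen with earlier results of these data known. Counts were summed per capture and class, with mt- genes left out of sums and library sizes and the 9 other genes that selected the cells left out of calls. The 20 genes that served to mark cells stayed among the genes tested in both fits. The 6 sums were fitted in edgeR 4.0.16 (R 4.3.3) with filterByExpr, TMM scaling, a robust quasi-likelihood fit and the capture as a block, at an adjusted p of 0.05. DESeq2 1.42.0 was the alternative. The classes of a capture are one suspension, which pairs them, and their deviations correlated at 0.26, 0.29 and 0.25 over 1675 genes. Total low-share and high-share counts ran from 222168 to 966849 UMIs outside mt- genes. On simulated sums of 6379 genes for this comparison, 69 of 91 genes changed 2-fold were found by edgeR, as were 89 of 89 changed 4-fold, with 10 false calls. DESeq2 found 27 and 75, with 0 false calls. The simulated sums had a common dispersion for all genes, no capture effect and far fewer changed genes than were called in the data. Their rates therefore need not hold for the data. Genes are named as the 10 largest changes in each direction with the same sign in 3 captures and at least 50 CPM, in the fit with and, added after seeing the data, without the marked cells, and from each of 18 lists as the 3 with the smallest adjusted p and the most abundant. Other genes are named after their values were seen. Doublets were kept, and their removal was an alternative. Barcodes shared by captures were 2, 0 and 6, and 7, 26 and 32 with the nuclei. Cell counts, thinning and figures used Python 3.11.15 with numpy 2.4.6, pandas 2.3.3 and matplotlib 3.10.9, and scanpy 1.11.5 scored doublets. Genes of cells and nuclei were matched by Ensembl identifier (27860 genes). Values of some genes are not reported here.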

Additional observations from a re-analysis of the deposited data

How the results depend on the processing

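Of the 2 directions over all cells, higher first, edgeR called 1090 and 996 genes. The counts were 343 and 268 in DESeq2, 625 and 1658 without TMM scaling, 699 and 591 with at least 8 marker UMIs, and 273 and 290 in cells thinned to 1000 UMIs, where fewer genes could be tested. Leaving out 1 capture gave 682 to 1125 higher and 485 to 1052 lower, with 682 and 485 without capture 2, and 723 and 662 without capture 3. Without the replicate block, which ignores the pairing by suspension, 997 and 928 were called. Without the marked cells, 1002 and 991 became 316 and 245 in DESeq2, 543 and 1602 without TMM scaling, 245 and 299 after thinning, 909 and 932 without the replicate block, and 687 to 967 and 524 to 962 with 1 capture left out, the lowest without capture 2. The other alternatives stayed within 1.5 times. The share of calls that were higher was 52.3%, and 27.4% without TMM scaling and 42.2% when scaled without Malat1. For 20% or less against 20% to 35%, 556 and 477 became 330 and 304 without the replicate block, 54 and 46 in DESeq2, and 1 to 580 and 3 to 470 with 1 capture left out (1 and 3 without capture 2). For 35% to 50% against 50% or more, 3 and 0 became 1 and 0 in DESeq2, 2 and 0 without the replicate block, 0 and 0 without the marked cells, and 0 to 5 and 0 to 1 with 1 capture left out, where 188 genes had an unadjusted p under 0.05 without capture 3. The median of genes higher in cells than in nuclei was 0.33, 0.0543 at a ratio of 2 and 0.14 without the marked cells. Among named genes, S100a10 (all cells, -0.29) and Tmsb10 (without the marked cells, -0.46) turned direction in thinned cells. Neither was called there (adjusted p = 0.674 and 0.388 in edgeR), and the cause was not tested. Without the replicate block the calls of Junb (adjusted p = 0.0527 in edgeR), Ier2 (0.0811), Hmox1 (0.154) and Xist (0.438) over all cells were lost, and without the marked cells those of Ier2 (0.0797), Hmox1 (0.118), Tomm7 (0.0625), Xist (0.341) and Mitf (0.0537), which were the only named genes it changed.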

Other observations

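Some genes outside the lists moved as far as the named ones, and they were chosen after their values were seen. Igf1, the insulin-like growth factor gene, was at means of 38.5 CPM in low-share cells and 245 CPM in high-share cells without the marked cells, a log2 fold change of -2.47 ± 0.23 (SE). Itpr1, which encodes a calcium release channel, was at 65.6 CPM against 376 CPM, a log2 fold change of -2.37 ± 0.20 (SE). Taf1d, a transcription initiation gene that also hosts small nucleolar RNAs, was at 1947 CPM against 808 CPM, a log2 fold change of 1.51 ± 0.11 (SE). All 3 captures had the same direction for each gene with the marked cells included.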
